A study of Mus musculus with 2 samples.

Results

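The BCL2 family genes Mcl1, Bcl2a1a, Bcl2a1b, Bcl2a1d, Bcl2, Bcl2l1, Bcl2l11, Pmaip1, Bax and Bid were described in mouse blood leukocytes. These 10 genes were taken by name from the 32285 genes in the files, as the survival and death genes of the family. The cells were neutrophils enriched with a negative selection kit from the blood of 7-month-old female mice, of wild-type mice (WT, C57BL/6J by the study's methods) and of APP/PS1 mice, a transgenic model of Alzheimer's disease. The promoters that drive the transgenes were not given in the sources used here, and every cell of a genotype came from blood pooled over 3 mice, so each genotype was 1 library. The comparison of the libraries asks how the RNA of blood neutrophils differed between the genotypes, but no replicate error could be had and no test was run. Intervals are exact 95% intervals for counting error, which do not hold the spread between mice.

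The 10x Genomics 3′ libraries count unique molecular identifiers (UMIs), 1 for each captured RNA end. The WT library held 17123 cells with 92458623 UMIs and the APP/PS1 library 17645 cells with 84870864 UMIs. The study's cell filter left 14564 and 15208 cells, of which 7578 and 9588 were neutrophils by cluster, with a median of 2553 and 2704 UMIs per cell. A level below is the UMIs of a gene summed over the cells of a type and scaled to counts per 1e6 UMIs of that type (CPM), and a log2 ratio compares 2 such levels. A gene was called measured in a comparison with at least 100 UMIs on a side, and past the limit when its log2 ratio was beyond 0.5. The neutrophils carried the markers of their name: 7 of 7 were detected, at a summed 181007 CPM in WT neutrophils and 153403 CPM in those of APP/PS1, against 4.46 and 4.65 CPM for the B cell markers. The summed markers of T cells in the neutrophils were 11.9 CPM (WT) and 55.2 CPM (APP/PS1), those of NK cells 14.9 and 23.8, of monocytes 451 and 414, of platelets 811 and 1005, and of erythroid cells 1789 and 1079, with every marker of these lists detected. Most of the T cell sum of APP/PS1 came from 1 marker, at 48.2 CPM, while the highest T cell marker of WT held 6.99 CPM. The sums therefore do not tell how T cell RNA as a whole differed between the libraries. The part of RNA from these other cell types in the results was not tested. The libraries shared 63 cell barcodes after filtering.

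BCL2 family proteins decide at the mitochondrial outer membrane whether a cell goes into apoptosis. MCL1, BCL2A1, BCL2 and BCL-XL (from Bcl2l1) hold back the pore-forming effectors such as BAX, and the BH3-only proteins BIM (from Bcl2l11), NOXA (from Pmaip1) and BID release or activate those effectors. Blood neutrophils are short-lived cells that depend on the labile MCL1 protein, and BCL2A1 is an inducible survival protein of myeloid and lymphoid cells.

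Of the survival genes, the mouse carries BCL2A1 in several near-identical copies, and the letters of the 3 copies measured here are shown because their likeness limits how their reads can be told apart. In mm10, Bcl2a1a lay on chr9:88956900-88962419 on the forward strand, Bcl2a1b on chr9:89199209-89207827 on the forward strand and Bcl2a1d on chr9:88723285-88731914 on the reverse strand. The RefSeq promoters (GRCm38.p6, the same build) are the 250 bases before the RefSeq start, printed 5′ to 3′ on the strand of the gene. They stand at chr9:88956670-88956919, chr9:89199023-89199272 and chr9:88731851-88732100, and each RefSeq start lies within the gene span given above. The capitals mark GAGGAAGT, the letters of an ETS-type motif, which was chosen after the sequences were seen.
Bcl2a1a: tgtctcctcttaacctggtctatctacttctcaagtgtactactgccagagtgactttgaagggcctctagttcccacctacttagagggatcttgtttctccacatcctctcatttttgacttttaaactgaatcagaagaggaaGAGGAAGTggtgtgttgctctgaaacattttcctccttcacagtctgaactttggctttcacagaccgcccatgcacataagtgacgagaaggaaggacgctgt
Bcl2a1b: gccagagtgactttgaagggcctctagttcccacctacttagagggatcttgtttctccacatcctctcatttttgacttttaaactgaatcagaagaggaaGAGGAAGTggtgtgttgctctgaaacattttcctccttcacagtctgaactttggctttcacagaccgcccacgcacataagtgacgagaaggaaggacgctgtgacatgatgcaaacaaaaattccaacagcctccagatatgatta
Bcl2a1d: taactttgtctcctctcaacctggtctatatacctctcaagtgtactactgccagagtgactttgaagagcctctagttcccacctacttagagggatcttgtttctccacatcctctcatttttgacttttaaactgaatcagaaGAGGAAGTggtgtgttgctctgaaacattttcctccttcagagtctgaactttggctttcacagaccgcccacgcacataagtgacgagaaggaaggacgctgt
Each window held the motif 1 time on the strand of its gene and 0 times on the other, and 802 of 32851 promoters of the same length, or 2.44%, held it on either strand. The Bcl2a1a and Bcl2a1b windows were 99.5% identical over 206 aligned bases, Bcl2a1a and Bcl2a1d 95.2% identical over 250, and Bcl2a1b and Bcl2a1d 96.1% identical over 206. The transcripts were 98.2%, 98.8% and 99.1% identical for the same pairs. Of the 411 windows of 90 bases in the last 500 bases of a transcript, which 3′ reads mostly cover, 39.7% of those of Bcl2a1a, 66.2% of Bcl2a1b and 65.2% of Bcl2a1d were also found in another transcript, among them those of the other copies and of Gm29094. Levels of a single Bcl2a1 copy are therefore uncertain, and the sum of the 3 is given beside them, which is free of the split among the copies but not of reads shared with Gm29094. Of the other members, Bax shared 15.3% of its windows with Gm45808, and the others shared 0.

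In neutrophils, Pmaip1 stood at about 1.9 times its WT level in APP/PS1, and it was the member past the limit. Pmaip1, which encodes the BH3-only protein NOXA that binds MCL1, had 1425 UMIs in WT neutrophils, or 65.5 CPM (62.1 to 69.0), and 3726 UMIs in APP/PS1 neutrophils, or 126 CPM (122 to 131). Its log2 ratio was 0.95 (0.86 to 1.04), a 1.93-fold difference, and it lay at percentile 99.6 of the 7415 genes measured in neutrophils. Across those genes 4.54% were higher past the limit and 2.81% lower. Of the 10 members 9 were measured, 1 was higher and 0 were lower, with a median log2 ratio of 0.13 against 0.06 over all measured genes. The share of neutrophils with a Pmaip1 UMI was 14.8% in WT and 25.8% in APP/PS1, and it was 6.33% and 11.9% after each cell was thinned to 1000 UMIs. The B cell gene Cd79a, which neutrophils should lack, gave a UMI in 0.383% and 0.511% of the same cells, below the Pmaip1 shares in both libraries. Cd79a shows free RNA of B cells only. Pmaip1 had 146 and 279 CPM in nonclassical monocytes, and the part of monocyte RNA in its shares was not tested.

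Among the survival genes, Mcl1 was level between the libraries. Mcl1 (chr3:95658788-95663176, forward strand) had 3698 CPM in WT neutrophils and 3722 in those of APP/PS1, with a log2 ratio of 0.01 (-0.00 to 0.02), and 99.9% and 99.7% of the neutrophils had a UMI of it. The Bcl2a1 copies were all higher in APP/PS1 within the limit. Bcl2a1a had 22.3 and 30.7 CPM, a log2 ratio of 0.46 (0.30 to 0.62). Bcl2a1b had 97.7 and 107 CPM, a log2 ratio of 0.13 (0.05 to 0.21). Bcl2a1d had 22.8 and 29.5 CPM, a log2 ratio of 0.37 (0.21 to 0.53). Their sum was 143 CPM in WT against 167 in APP/PS1, a log2 ratio of 0.22 (0.16 to 0.29). Bcl2l1 (chr2:152780668-152831728, reverse strand), the source of BCL-XL, went the other way within the limit, from 20.3 CPM in WT to 16.5 CPM in APP/PS1, a log2 ratio of -0.30 (-0.49 to -0.11), at percentile 6.4 of all measured genes. Bcl2 (chr1:106538178-106714274, reverse strand), the founding survival gene of the family, had 43 UMIs in WT neutrophils and 72 in APP/PS1, too few to be called measured. At 1.98 and 2.44 CPM it reached 0.702% and 1.04% of its level in the lymphocytes of the same library. Of 8 lymphocyte genes measured in the same way, Cd3g was above Bcl2 at 0.854% and 1.32%, and the other 7 were below it, between 0.172% and 0.554% in WT and between 0.113% and 0.407% in APP/PS1. Bcl2 thus lay within the range of these 8 genes but near its top. The 8 did not include the highest T cell and NK cell markers in neutrophils. That of T cells reached 6.99 CPM in WT neutrophils, against 48.2 CPM in those of APP/PS1. Their shares of the lymphocyte level were not computed, so the place of Bcl2 in the full range of lymphocyte RNA is open. Whether neutrophils expressed Bcl2 could not be told at this depth.

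Among the death genes other than Pmaip1, none was past the limit. Bid (chr6:120891930-120916853, reverse strand), whose protein links death receptors to mitochondria after cleavage by caspase 8, had 72.2 CPM in WT neutrophils and 84.0 in APP/PS1, a log2 ratio of 0.22 (0.13 to 0.31). Bcl2l11 (chr2:128126038-128162547, forward strand), the source of BIM, had 67.0 and 63.3 CPM, a log2 ratio of -0.08 (-0.18 to 0.02). Bax (chr7:45461697-45466898, reverse strand), the effector that opens the outer membrane, had 30.9 and 31.0 CPM, a log2 ratio of 0.01 (-0.14 to 0.15). The intervals of Bcl2l11 and Bax held 0, and those of both lay inside the limit.

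**Figure D1:**
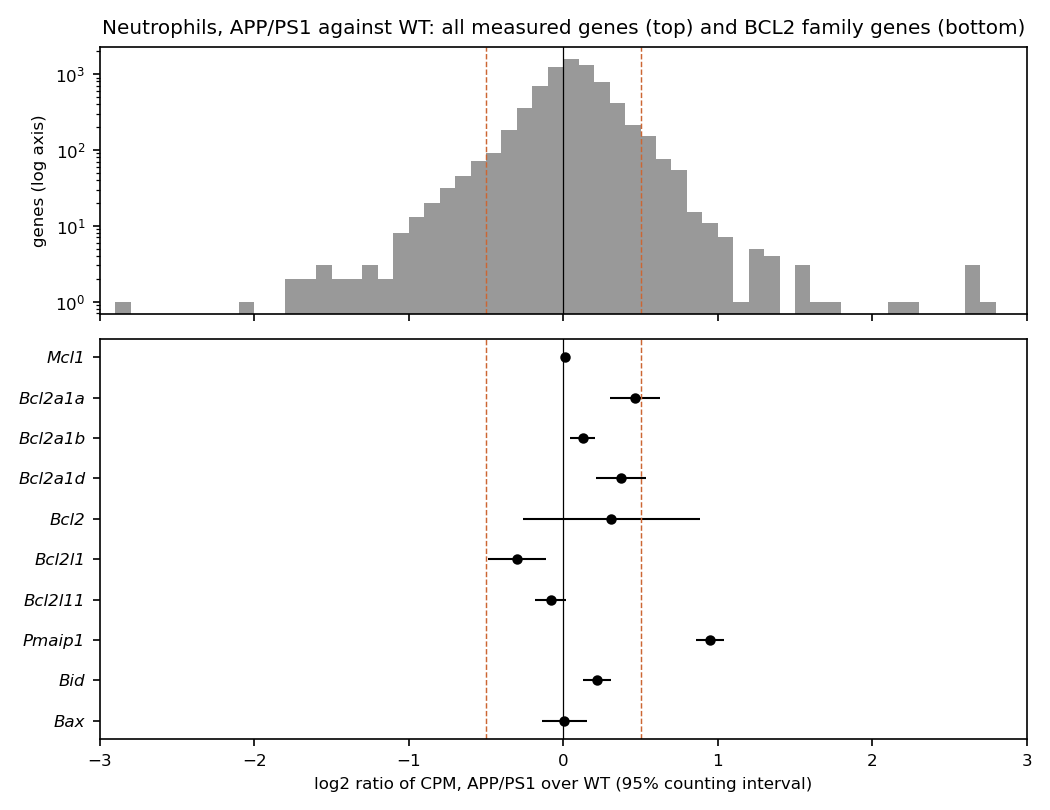
Log2 ratio of CPM in neutrophils, APP/PS1 over WT, for all 7415 measured genes as a histogram with a log count axis (top) and for the 10 BCL2 family genes with 95% counting intervals (bottom); dashed lines mark the limit of 0.5. Pmaip1 at 0.95 lies past the limit, the other measured members lie between -0.30 and 0.46, and Bcl2 has the widest interval.

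The other genes of the apoptosis pathway were given by a list of 52, of which 34 were measured in neutrophils. Among these 0 were higher and 0 lower past the limit, against the 4.54% and 2.81% of all genes, and their median log2 ratio was 0.06, as over all genes. That held for 7 of 16 other BCL2 family genes, 10 of 12 genes of the mitochondrial pathway and caspases, 5 of 6 caspase inhibitors, 3 of 6 death receptor genes, 3 of 5 genes of transcription and sensing, 4 of 5 genes that turn over MCL1 and 2 of 2 outer membrane channels, which were the ones measured. Of the 5 with most UMIs, Tnfrsf1a, a receptor of TNF, had 431 CPM in WT and 408 in APP/PS1, a log2 ratio of -0.08. Bnip3l, a mitophagy receptor, had 194 and 203 CPM, a log2 ratio of 0.06. Ddit3, a stress transcription factor, had a log2 ratio of 0.04. The death receptor gene Fas had 126 and 142 CPM, a log2 ratio of 0.17, and the caspase inhibitor gene Birc3 a log2 ratio of 0.04. No measured gene of the list stood as far from WT as Pmaip1.

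The higher Pmaip1 level was met in several blood cell types of the same APP/PS1 library. The cells that were not neutrophils were clustered again and named from markers, which left 6 clusters with 3729 cells unnamed. In nonclassical monocytes, the patrolling monocytes marked by Treml4 and Ace, Pmaip1 had 146 CPM in WT and 279 in APP/PS1, a log2 ratio of 0.93 (0.82 to 1.04). In monocytes it had 54.6 and 97.3 CPM, a log2 ratio of 0.83 (0.68 to 0.99), and in T cells 39.0 and 63.8 CPM, a log2 ratio of 0.71 (0.22 to 1.21). These 3 were past the limit, as was 1.27% of the genes measured in nonclassical monocytes, 1.27% of those in monocytes and 6.11% of those in T cells. In dendritic cells the log2 ratio was 0.35 (-0.03 to 0.74), in B cells 0.29 (-0.11 to 0.70) and in NK cells, with 24 and 50 UMIs, 0.33 (-0.40 to 1.10). These last 3 intervals held both 0 and values past the limit, so a difference was not detectable at this depth. Whether the ratio of Pmaip1 differed between cell types was not tested.

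**Figure D2:**
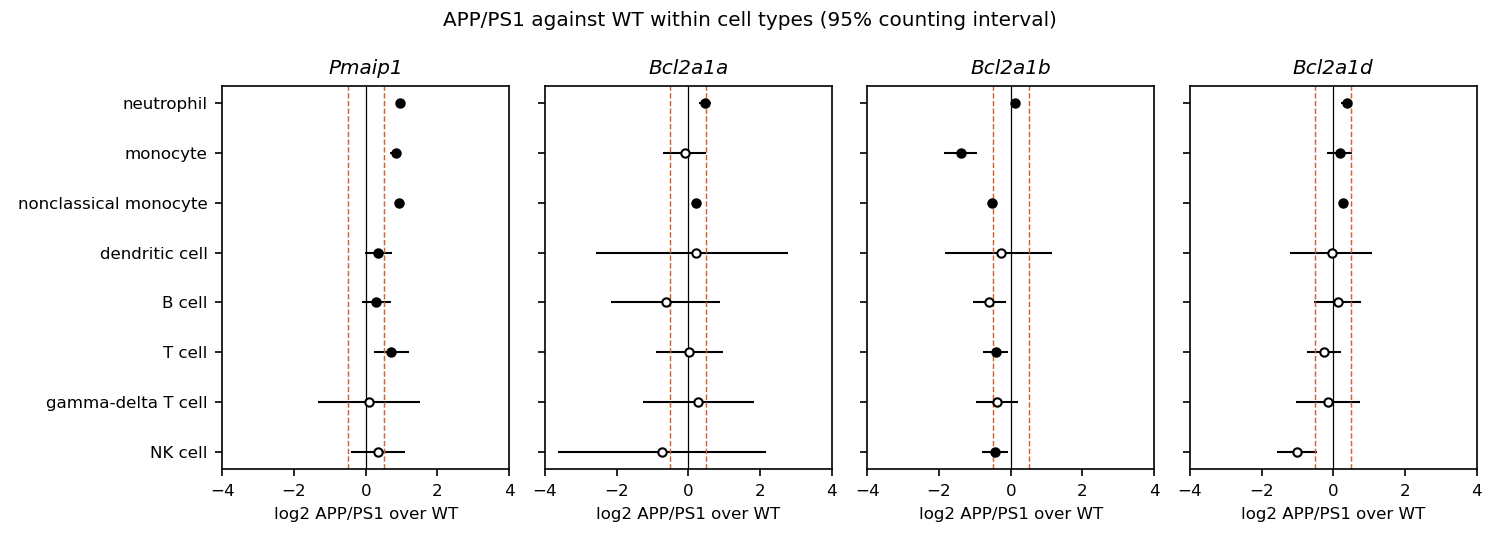
Log2 ratio of CPM, APP/PS1 over WT, for Pmaip1 and the 3 Bcl2a1 genes within 8 blood cell types, with 95% counting intervals; filled points had at least 100 UMIs in a library, open points fewer, and dashed lines mark the limit of 0.5. Pmaip1 lies above 0.5 in neutrophils, monocytes, nonclassical monocytes and T cells, and Bcl2a1b lies at 0.13 in neutrophils but at -1.40 in monocytes and -0.51 in nonclassical monocytes.

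In both kinds of monocytes Bcl2a1b was lower in APP/PS1, and the 3 copies did not share a direction. In monocytes Bcl2a1b had 17.2 CPM in WT and 6.53 in APP/PS1, from 196 and 50 UMIs, a log2 ratio of -1.40 (-1.88 to -0.94), while 2.91% of the genes measured there were lower past the limit. That value was -0.84 without the percentile limits on cells and -0.57 with 30 principal components, so its size depended on which cells were counted as monocytes. In nonclassical monocytes Bcl2a1b had 601 and 422 CPM, a log2 ratio of -0.51 (-0.58 to -0.44), where 2.88% of genes were lower, while Bcl2a1a had 234 and 271 CPM, a log2 ratio of 0.21 (0.11 to 0.31), and Bcl2a1d 447 and 540 CPM, a log2 ratio of 0.27 (0.20 to 0.34). The sum of the copies there was 1283 CPM in WT and 1234 in APP/PS1, a log2 ratio of -0.06 (-0.10 to -0.01). The opposite values of the copies thus left their sum almost level. Bcl2a1b had a log2 ratio of -0.42 (-0.77 to -0.07) in T cells and -0.44 (-0.80 to -0.07) in NK cells.
The summed copies were lower in APP/PS1 in NK and T cells as well. In NK cells the sum had 138 CPM in WT and 90.3 in APP/PS1, a log2 ratio of -0.62 (-0.91 to -0.32), past the limit that 1.18% of the genes measured there were lower by, and all 3 copies were lower there, Bcl2a1a with 3 UMIs in each library. In T cells the sum had a log2 ratio of -0.32 (-0.59 to -0.06) and in B cells one of -0.37 (-0.73 to -0.02). All lymphocytes together gave -0.45 (-0.61 to -0.30). In monocytes the sum was at -0.41 (-0.65 to -0.17). The value of monocytes was -0.11 without the percentile limits on cells and 0.18 with 30 principal components, and that of B cells was 0.07 without those limits and -0.07 with doublets removed.
As a share of the UMIs of all 3 copies, Bcl2a1b took 68.4% in WT neutrophils and 63.9% in APP/PS1, 46.6% and 23.5% in monocytes, and 46.9% and 34.2% in nonclassical monocytes. Bcl2a1d took 38.0% and 57.3% in monocytes and 34.9% and 43.8% in nonclassical monocytes. In NK cells the share of Bcl2a1b went the other way, at 63.2% (55.7 to 70.2) in WT and 71.6% (64.7 to 77.8) in APP/PS1, with intervals that overlapped. How far these shares reflect the assignment of reads among the copies was not tested.

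Few other members were past the limit between the libraries outside neutrophils. In monocytes, of 9 measured members, 1 was higher (Pmaip1) and 1 lower (Bcl2a1b). In nonclassical monocytes, of 10 measured, 1 was higher (Pmaip1) and 2 lower, Bcl2a1b and Bcl2l1, the latter at 13.1 CPM in WT and 8.87 in APP/PS1, a log2 ratio of -0.57 (-1.11 to -0.05). That of Bcl2l1 came inside the limit without the percentile limits (-0.45), with doublets removed (-0.46) and with 30 principal components (-0.48). In T cells 1 of 5 was higher (Pmaip1) and 0 lower, where 5.27% of genes were lower. In NK cells 0 of 5 measured members were past the limit, where 1.73% of genes were higher and 1.18% lower. In B cells 0 of 4 were past it, where 2.84% were higher and 3.51% lower, and in dendritic cells 0 of 3, where 1.42% were higher and 5.87% lower. Bcl2 in NK cells lay just inside it, at 404 CPM in WT and 296 in APP/PS1, a log2 ratio of -0.45 (-0.62 to -0.28). Mcl1 kept within 0.23 of WT on the log2 scale in monocytes (-0.14), nonclassical monocytes (-0.09), T cells (-0.23) and NK cells (0.17). The apoptosis list had 2 of 38 measured genes lower and 0 higher in monocytes, Endog (-0.51), the source of a mitochondrial nuclease, and Ripk3 (-0.52), a kinase gene of necroptosis, and 0 past the limit in the nonclassical monocytes, dendritic, B, T and NK cells.

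Across blood cell types, each member had its own order of levels, given here for WT and APP/PS1 in turn. The order covers 10 types. Clusters named as platelets (113 and 31 cells) and plasma cells (128 cells) were left out of it. The survival gene Mcl1 was highest in neutrophils, at 3698 and 3722 CPM, followed by basophils at 1408 and 1320 and monocytes at 1261 and 1146, and it was low in NK cells at 362 and 407. In both libraries the interval of neutrophils lay apart from that of the next type. The neutrophil RNAs S100a8, S100a9 and Retnlg reached 0.795% to 1.76% of their neutrophil level in B, T and NK cells, while Mcl1 reached 9.78% to 21.9%, which lies above such free RNA. Bid too was highest in neutrophils, at 72.2 and 84.0 CPM, and no other type went above 31.9 in WT and 32.5 in APP/PS1, both in monocytes. Its neighbours below neutrophils overlapped one another.
Bcl2 was ordered otherwise, with NK cells at 404 and 296 CPM and T cells at 348 and 316 at the top, nonclassical monocytes at 215 and 211, B cells at 151 and 127, and neutrophils last. The intervals of NK and T cells overlapped in both libraries. Bax was lowest in neutrophils in both libraries, at 30.9 and 31.0 CPM, against 105 to 195 CPM in the other leukocytes, and 39.3 and 77.6 CPM in erythroid cells. In WT the intervals of neutrophils and erythroid cells overlapped, and with doublets removed Bax was higher in neutrophils than in erythroid cells by 1.80 (log2).

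Bcl2l11 was highest in NK cells, at 144 and 118 CPM, followed by monocytes at 70.1 and 68.8 and neutrophils at 67.0 and 63.3, whose intervals overlapped. On the scale of trimmed-mean (TMM) library sizes, which lessen the weight of the most abundant genes, neutrophils were instead above NK cells by 0.16 and 0.30 (log2). Pmaip1 was highest in nonclassical monocytes, at 146 and 279 CPM, and dendritic cells, at 126 and 161, with neutrophils at 65.5 and 126, and lowest in NK cells, at 18.2 and 22.9. On the TMM scale neutrophils stood above dendritic cells by 0.17 and 0.75 (log2). Against nonclassical monocytes the log2 ratio of neutrophils was -1.16 in WT. TMM moved the ratios of this pair up by 0.91 in WT and 0.97 in APP/PS1, so most of the WT gap was gone on that scale. The NK cell level was 27.8% of that of neutrophils in WT and 18.1% in APP/PS1, above the free RNA of neutrophils. The summed Bcl2a1 genes were by far highest in nonclassical monocytes, at 1283 and 1234 CPM, against 143 and 167 in neutrophils and 36.9 and 27.8 in monocytes. Bcl2l1, which is known for its role in the survival of red cell precursors, had overlapping intervals at the top of the ordered types, which leave out platelets. There erythroid cells had 51.1 and 33.7 CPM and NK cells 33.4 and 43.1, and B cells were lowest with 3.02 and 1.86. Basophils and erythroid cells had fewer than 50 cells in APP/PS1, 43 and 37.

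**Figure D3:**
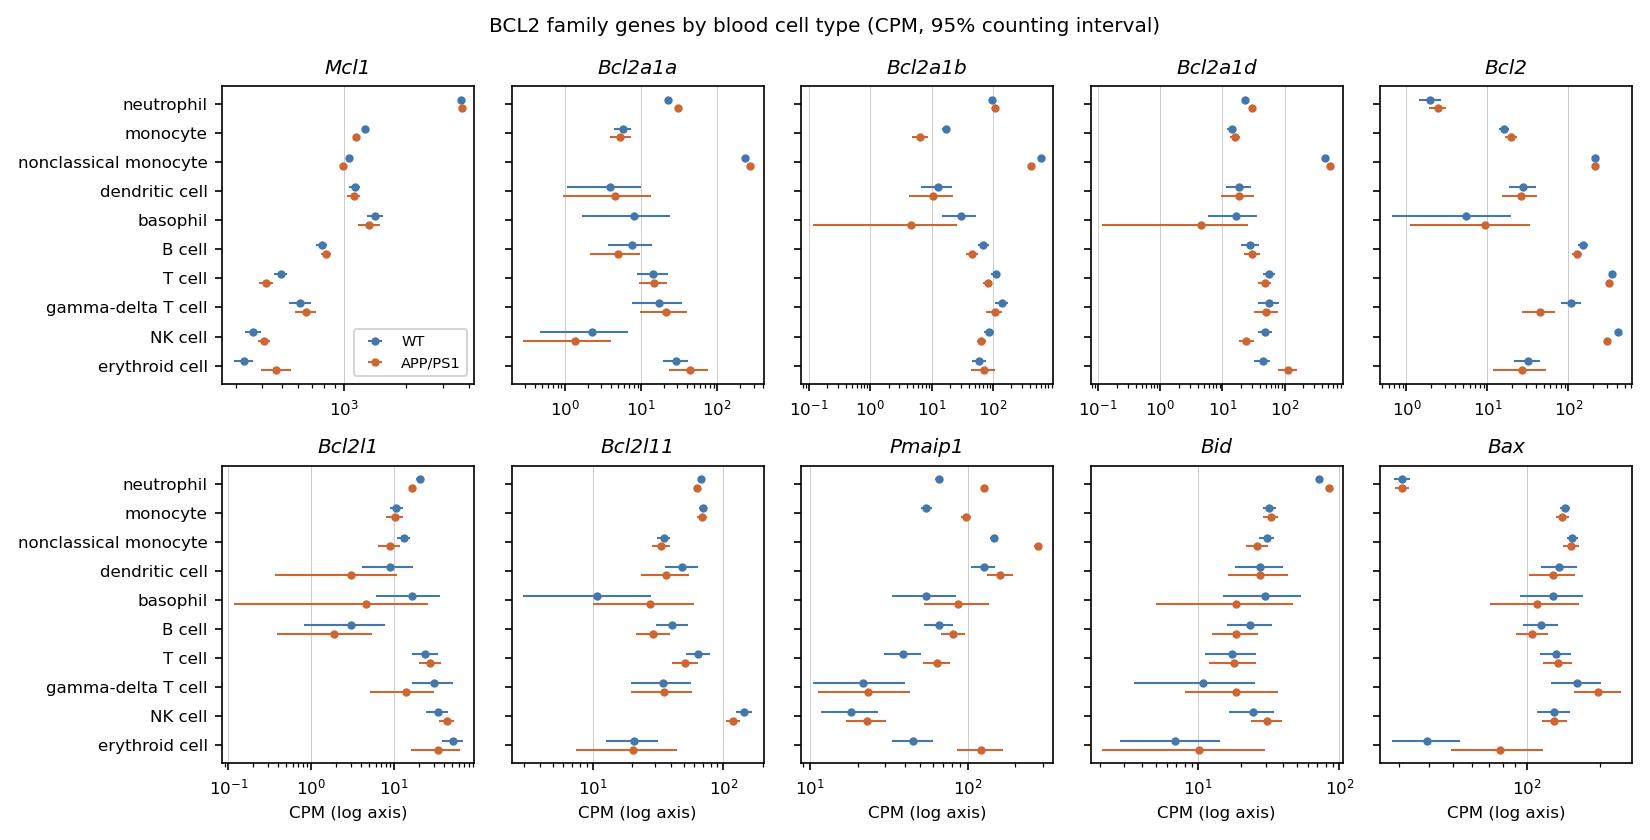
Level of each of the 10 genes in 10 blood cell types in CPM on a log axis, for WT (blue) and APP/PS1 (orange), with 95% counting intervals; a type with 0 UMIs has no point. On this scale Mcl1 and Bid are highest in neutrophils, Bax and Bcl2 lowest there, and the Bcl2a1 genes and Pmaip1 are highest in nonclassical monocytes.

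Against all other cells together, within each library, neutrophils had a log2 ratio of 1.53 in WT and 1.65 in APP/PS1 for Mcl1, and 1.24 and 1.33 for Bid. All other cells included the 3729 of the unnamed clusters. Of those, a cluster of 1386 cells had 2.96% called doublets. The others had 57.0% to 74.3%, and mean log2 ratios of the neutrophil markers of 1.76 to 2.72 against the other non-neutrophil cells. The ratio was -2.10 and -2.07 for Bax and -5.81 and -5.64 for Bcl2. Past the limit were 2 members higher and 5 lower of 10 in WT (Bcl2a1a, Bcl2a1b, Bcl2a1d, Bcl2 and Bax), and 2 higher and 4 lower in APP/PS1, without Bcl2a1b. Of all genes measured 15.7% were higher and 62.9% lower in WT, and 17.2% and 60.8% in APP/PS1. TMM scaling moved all log2 ratios of neutrophils to a single leukocyte type up by the same amount, 0.69 to 1.26 depending on the type. The ratios of Mcl1, Bid, Bax and Bcl2 to all other cells kept their direction under it. Between the libraries within neutrophils it moved values by -0.05.

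Within neutrophils, the members differed between clusters, which were made without the BCL2 family and apoptosis genes and without genes that differed between the libraries. These comparisons of a cluster with the other neutrophils are a description. Cluster 0 was led by Stfa2, Cstdc5, Prok2, Cstdc4 and Retnlg and held 39.8% of WT and 29.8% of APP/PS1 neutrophils. Cluster 1 was led by Clec4n, Gm19951, Slc36a3os, Dusp2 and Gngt2 and held 22.6% and 32.6%. Cluster 2 was led by Slc6a4, Gp5, Tubb2a, Parvb and Plxna4, several of them genes of platelets, with 19.2% and 20.8%, and cluster 3 by the interferon-induced genes Ifit2, Ifit1, Ifit3, Ifit1bl1 and Ifit3b, with 16.2% and 14.3%. Cluster 4, with 257 cells, was led by Camp, Ltf, Ngp, Chil3 and Adpgk, of which Camp, Ltf and Ngp encode proteins of secondary granules made in immature neutrophils. Cluster 5, with 151 cells, was led by mt-Nd2, mt-Nd3, mt-Nd1, mt-Nd4l and Gm26917.

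Pmaip1 was highest in cluster 1, where it was the sixth gene by fold. Its level there was 117 CPM in WT and 215 in APP/PS1, a log2 ratio to the other neutrophils of 1.09 (0.93 to 1.26) and 1.15 (1.06 to 1.25). In cluster 1 of WT 5 of 9 measured members were higher past the limit, namely Pmaip1, the 3 Bcl2a1 genes and Bax, against 11.4% of all genes, and in APP/PS1 Bcl2l11 was among them as well, 6 of 9 against 9.24%. The summed Bcl2a1 genes had 223 and 231 CPM there, a log2 ratio of 0.82 and 0.67, and Bax a log2 ratio of 0.55 and 0.64. At this cut, the Bcl2a1 survival genes, which share reads, and the death genes Pmaip1 and Bax thus stood higher in the same cluster. Mcl1 was within the limit there, at 0.21 in both libraries, as was Bid, at 0.06 in WT and -0.03 in APP/PS1. Bcl2l1 went the other way, with a log2 ratio of -0.42 in WT and -0.74 in APP/PS1, where 6.03% of genes were lower. With a finer cut into 9 clusters, Pmaip1 was highest in a cluster of 4241 cells led by Gm19951 and Clec4n, at 120 and 225 CPM, and a smaller cluster of 597 cells with Traf1 and Tnf among its leading genes had 93.0 and 110 CPM. Bcl2a1b was instead higher in the smaller cluster, at 170 and 210 CPM against 145 and 137 in the larger. Bcl2a1a had 35.6 and 66.0 against 31.4 and 42.1, and Bcl2a1d 23.3 and 69.6 against 37.3 and 36.5. In WT the intervals of these clusters overlapped for each copy, and in APP/PS1 they lay apart.
Cluster 0 held the low end of Pmaip1 among the large clusters, at 38.6 and 62.7 CPM, a log2 ratio of -1.10 and -1.29, where 10.9% and 14.7% of genes were lower past the limit. Bcl2l1 was highest in cluster 2, at 27.7 and 25.9 CPM, a log2 ratio of 0.59 and 0.93. It was the only member past the limit there in either library, against 3.79% and 4.40% of genes higher and 2.43% and 2.92% lower. With the finer cut Bcl2l1 was highest in the cluster that led for the platelet markers, which held 314 cells, at 49.0 CPM in WT and 74.0 in APP/PS1. The part of platelet RNA in these values was not tested. In cluster 3, 0 of 9 measured members were past the limit in either library, against 3.21% of genes higher in both, and 3.87% and 5.86% lower.
In cluster 4, the cells with granule genes, Mcl1 had 1278 CPM in WT and 1165 in APP/PS1, a log2 ratio of -1.56 and -1.71. There 7 of 9 measured members were lower in WT and 9 of 9 in APP/PS1, where 41.9% and 41.6% of genes were lower as well, and most rested on few UMIs, with 13 and 13 for Pmaip1. Bid had 25.4 and 34.4 CPM in that cluster, a log2 ratio of -1.53 and -1.32, while it was within 0.17 of the other neutrophils in clusters 0 to 3.

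**Figure D4:**
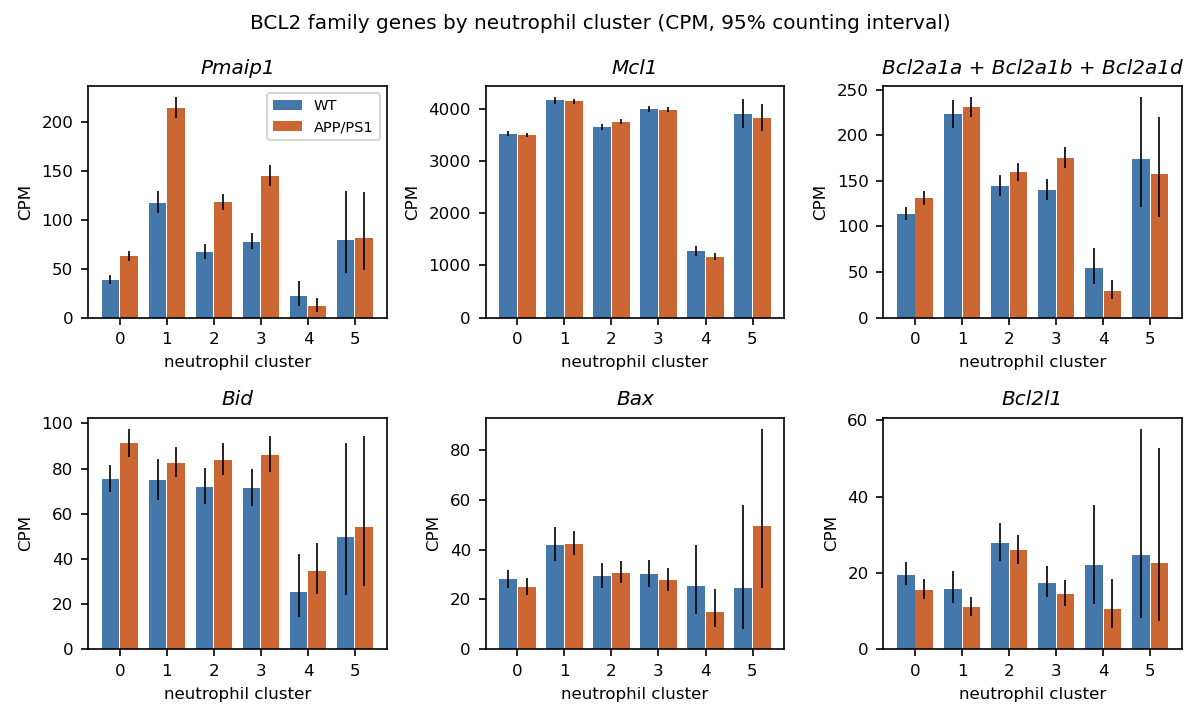
Level in CPM of Pmaip1, Mcl1, the summed Bcl2a1 genes, Bid, Bax and Bcl2l1 in 6 neutrophil clusters, for WT (blue) and APP/PS1 (orange), with 95% counting intervals. Pmaip1 is higher in APP/PS1 in clusters 0 to 3 and highest in cluster 1, and Mcl1 and Bid are low in cluster 4.

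The difference in Pmaip1 between the libraries was met within the 4 large clusters. For clusters 0, 1, 2 and 3 in turn, the log2 ratio of APP/PS1 over WT was 0.70, 0.87, 0.81 and 0.90, with lower ends of the interval at 0.50, 0.72, 0.62 and 0.71. There 2.52%, 3.49%, 3.78% and 3.50% of genes were higher past the limit. In the small clusters Pmaip1 was not measured, with a log2 ratio of -0.94 (-2.17 to 0.29) in cluster 4 and 0.03 (-1.02 to 1.10) in cluster 5. With the same share of each cluster in both libraries the ratio over all neutrophils was 0.82, against 0.95. Of the Bcl2a1 genes, Bcl2a1d was past the limit in clusters 0 and 3 (0.61 and 0.52) and Bcl2a1a in cluster 2 (0.58), while the sum had a log2 ratio of 0.05 in cluster 1 and 0.14 to 0.32 in clusters 0, 2 and 3. Of the apoptosis list, Bbc3, the source of the BH3-only protein PUMA, was higher in cluster 0 (0.54) and the channel gene Vdac1 in cluster 2 (0.50). Mcl1 lay within 0.04 of WT in each of clusters 0 to 3.

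The genes whose levels ran most like each member over 20 profiles of library and cell type, by Pearson's r of log2(CPM + 1) among 8859 genes, were named as a description. The points share libraries and total UMIs and no p is given. For Mcl1 these were Fth1 (r = 0.96), Dclre1c (0.94) and Snap23 (0.94), and for Pmaip1 Rnase6 (0.88), Cst3 (0.85) and Prkcd (0.85). Bid ran with Gabarap, Atp6v1g1 and Ier5 (each 0.90), and Bax with Rex1bd, Atp2a2 and Eif3h (each 0.97). Bcl2 ran with Atr (0.93), Cblb (0.93) and Ssh1 (0.92), and Bcl2l11 with Chsy1 (0.88), Rnaseh2c (0.87) and Cpne1 (0.82). Bcl2a1a ran with Treml4 (0.93), Tcf7l2 (0.91) and Map3k14 (0.89), and Bcl2a1d with Slc12a2, Fabp4 and Map3k14 (each 0.89). Bcl2a1b ran with Spata13 (0.86), Abcg3 (0.82) and Hjurp (0.80), and the loosest likeness was that of Bcl2l1, with Ccndbp1 (0.77), Gabarapl2 (0.71) and Pam (0.70).

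Genes within 1 Mb of a member were read in neutrophils of APP/PS1 against WT, where 4.54% of all measured genes were higher past the limit and 2.81% lower. Around Pmaip1 (chr18:66458533-66465565, forward strand) 0 of 8 measured neighbours were past the limit, and around Bax 0 of 39, Bcl2 0 of 5 and Bcl2l11 0 of 10. The Bcl2a1 locus held 5 such neighbours, with 12 to 15 measured genes around each copy, the other copies among them. Mthfsl, 2.99 kb from Bcl2a1d, had a log2 ratio of 0.73, and Mthfs, 2.85 kb from Bcl2a1b, one of 0.50, while Gm2396 was at 0.99, Snhg5 at -0.66 and Nt5e at -1.36, from 30.2 CPM in WT to 11.8 in APP/PS1. Mthfsl and Mthfs thus stood on the same side as the Bcl2a1 genes beside them, and Nt5e, 351 kb from Bcl2a1d, on the other. Around Mcl1 4 of 35 were past the limit (Tnfaip8l2 0.51, Tars2 0.62, Ciart 0.79 and Prune1 -0.76), around Bcl2l1 3 of 15 (Id1 -0.80, Fam110a -0.78 and Commd7 0.81) and around Bid 1 of 8 (Usp18 0.53).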

How the data were processed

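Counts of UMIs per gene and cell were deposited by the authors as 1 matrix per library, made with Cell Ranger 5.0.0 on mm10. As in the study, each library kept its cells between percentiles 5 and 95 of detected genes and of UMIs, with at most 10% mitochondrial UMIs. Cells were clustered with Seurat 5.3.0 (2000 variable features, 15 principal components, resolution 0.2), the other cells again at 0.4, and neutrophils after integration of the libraries. Doublets were called with Scrublet (scanpy 1.11.5) and kept: the automatic threshold called 0 cells in APP/PS1, so that of WT served both, calling 7.89% and 6.22%. With 1 library per genotype no count model was run. Named were all members, apoptosis list genes past the limit in neutrophils and its 5 with most UMIs, 3 genes most like each member, 5 leading genes per cluster, and neighbours past the limit. Endog, Ripk3, Bbc3 and Vdac1 were named after their values were seen. The members and lists were chosen with earlier results of these data known. Positions are from GENCODE M21, which matched 32158 genes. Ratios and intervals were tested on simulated counts that held counting error only. Spread between cells or mice and reads shared among the Bcl2a1 copies were not simulated. TMM used edgeR 4.0.16, and R was 4.3.3.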

Additional observations from a re-analysis of the deposited data

Results flagged for a closer look

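Bcl2a1b, the copy of BCL2A1 with most UMIs in neutrophils, had a log2 ratio of APP/PS1 over WT of 0.13 in neutrophils and of the opposite sign in monocytes (-1.40), nonclassical monocytes (-0.51), T cells (-0.42) and NK cells (-0.44), each with a counting interval on its own side of 0. The summed Bcl2a1 copies had the same signs, at 0.22 in neutrophils, -0.41 in monocytes, -0.06 in nonclassical monocytes, -0.32 in T cells and -0.62 in NK cells. The sum in nonclassical monocytes was almost level, with Bcl2a1a at 0.21 and Bcl2a1d at 0.27 there. The monocyte sum was smaller in size without the percentile limits on cells, and was at 0.18 with 30 principal components. With 1 library per genotype the difference between cell types was not tested. The share of its last windows that other transcripts also hold, 66.2%, applies to each of these values.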

How the results depend on the processing

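Of 2215 ratios recomputed under the alternative settings, 1139 were of values measured and past the limit. Of these, 1115 kept their direction and 1074 stayed past it. Among the rest, 225 lay beyond 0.5, which includes ratios already beyond it in the main values on fewer than 100 UMIs. Pmaip1 in neutrophils stayed between 0.82 and 0.99, and the counts of members and of apoptosis genes past the limit were as reported, except that 2 members were higher with a mean over cells of CPM per cell, where Bcl2a1a reached 0.50. Listed below are changes of direction among ratios measured and past the limit in the main values. Ratios within the limit that turned are not listed. The cause of these changes was not tested.
Ratios of neutrophils to other types that changed direction with TMM were, in WT, Pmaip1 to dendritic cells (0.17) and erythroid cells (-0.036), Bcl2a1b (0.75), Bcl2l1 (0.68) and the Bcl2a1 sum (0.68) to gamma-delta T cells, and Bcl2a1d (0.16), Bcl2l1 (0.54) and Bcl2l11 (0.16) to NK cells. In APP/PS1 they were Bcl2a1d (0.52) and Bcl2l1 (0.48) to T cells, Bcl2a1d to gamma-delta T cells (0.46) and Bcl2l11 to NK cells (0.30). Without the percentile limits Bcl2a1d turned against monocytes (-0.70 in WT, -0.67 in APP/PS1) and against T cells in APP/PS1 (0.46). With 30 principal components the same values were -0.41, -0.61 and 0.28. With doublets removed Bcl2a1d turned against erythroid cells in WT (0.88) and T cells in APP/PS1 (0.35). With the total taken without 124 abundant genes Bcl2a1b (-0.91) and Pmaip1 (-1.08) turned against erythroid cells in WT. With at least 8 clusters, the cluster highest in the Clec4n and Traf1 marker list was a smaller cluster, and in APP/PS1 Pmaip1 was at -0.20 and Bcl2l1 at 0.030 against the other neutrophils. With 30 principal components clusters 0 and 1 were not separated, so no value was had for them.
No paired analysis was possible because each genotype had 1 library and the labels carry no replicate numbers. For the same reason no replicate could be left out. Depth limited Bcl2 in neutrophils and many members in the lymphocyte types and dendritic cells, where fewer than 100 UMIs were counted: 5 of 10 were measured in T and in NK cells, 4 in B cells, 3 in dendritic cells and 1 in gamma-delta T cells.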
